A study of Danio rerio with 48 samples.

Results

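TL embryos were set against AB embryos of the zebrafish (Danio rerio) at 3.25 hours post fertilisation (hpf), the stage at which the first zygotic transcripts appear. TL and AB are laboratory strains, and the 12 embryos compared, 6 of TL and 6 of AB, were chosen by strain and stage among the 48 embryos of the series. No mutation, transgene or treatment is given in the labels for either strain. Every embryo came from natural spawning, was kept at 28.5 °C and was collected alone in Trizol. Both strains had 2 biological replicates of 3 embryos, numbered 1 to 3 in the first and 4 to 6 in the second, and the replicates were sequenced in separate runs according to the labels. The labels do not say whether embryos of 1 replicate shared parents, so p-values measure the spread between these embryos. The other 36 embryos, taken an hour earlier (2.25 hpf), an hour later (4.25 hpf) or another hour on (5.25 hpf) with 6 per strain, served only to class genes by stage and to set the strain difference beside that of other embryos.

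RNA was measured by CEL-seq2, which tags the 3′ ends of polyadenylated RNA in each sample with a barcode and counts them per gene. At this stage the embryo is a blastula. Nearly all of its RNA was laid down in the egg by the mother, and maternal proteins such as Pou5f3, Nanog and Sox19b open the genome to transcription. The earliest zygotic products include regulators of the outer enveloping layer, the yolk syncytial layer and the dorsal margin, while the maternal RNA begins to be cleared. A difference between strains can therefore lie, among other sources, in what the egg received, what has been cleared or what the embryo has begun to make.

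The 12 libraries held 5100691 to 20036495 counts. Levels are given as CPM, counts scaled to a library of 1e6 after normalization. A single ID, ENSDARG00000080337, took 23.1% to 27.9% of them in TL embryos and 12.1% to 59.2% in AB embryos (exact permutation test within replicates, two-sided p = 0.125, n = 6 each), and it was left out of library totals. The counts without it ranged from 3841184 to 12797100 in TL embryos and from 4764466 to 11172437 in AB embryos. Between 15300 and 18334 gene IDs were detected per embryo. Markers of the early embryo were present: the summed level of 9 oocyte and germ plasm genes was 5891 to 10110 CPM in TL embryos and 5403 to 9096 CPM in AB embryos. Of 4 liver markers, vtg2 and fabp10a were at 0 in all 12 embryos. The other liver markers, apoa2 and vtg1, were read in AB embryos only, at most at 0.323 and 0.1075 CPM. The highest sums were 1.43 CPM for 2 globin genes, 2.2 CPM for 2 exocrine pancreas markers and 5.9 CPM for 2 muscle markers. The 3 ovarian follicle markers summed to 0.243, 3.06 and 6.83 CPM (lowest, median, highest) in TL embryos and to 0, 0.144 and 0.956 CPM in AB embryos. Nearly all of the TL signal was gsdf, described at the end. In whole embryos, fewer cells of a type and less RNA per cell cannot be told apart.

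Of 12646 genes tested with edgeR's quasi-likelihood test (biological replicate as a block, Benjamini-Hochberg adjusted p under 0.05), 2340 differed between the strains (18.5%). 1078 were higher in TL (8.52%) and 1262 were higher in AB (9.98%). Differences are given on the log2 scale, TL minus AB, with their standard error (SE). The median absolute difference of the called genes was 1.07. A difference of at least 1 was reached by 497 of the genes higher in TL and 755 of those higher in AB, and one of at least 2 by 192 and 335 genes. The sign was the same in replicate 1 and replicate 2 for all 2340 called genes. The genes were called on these same embryos, so the shared sign follows largely from the selection and is no replication. The CPM of the strains did not overlap at all for 1064 of the tested genes (8.41%), of which 1027 were called, 488 with TL above and 539 with AB above.

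**Figure D1:**
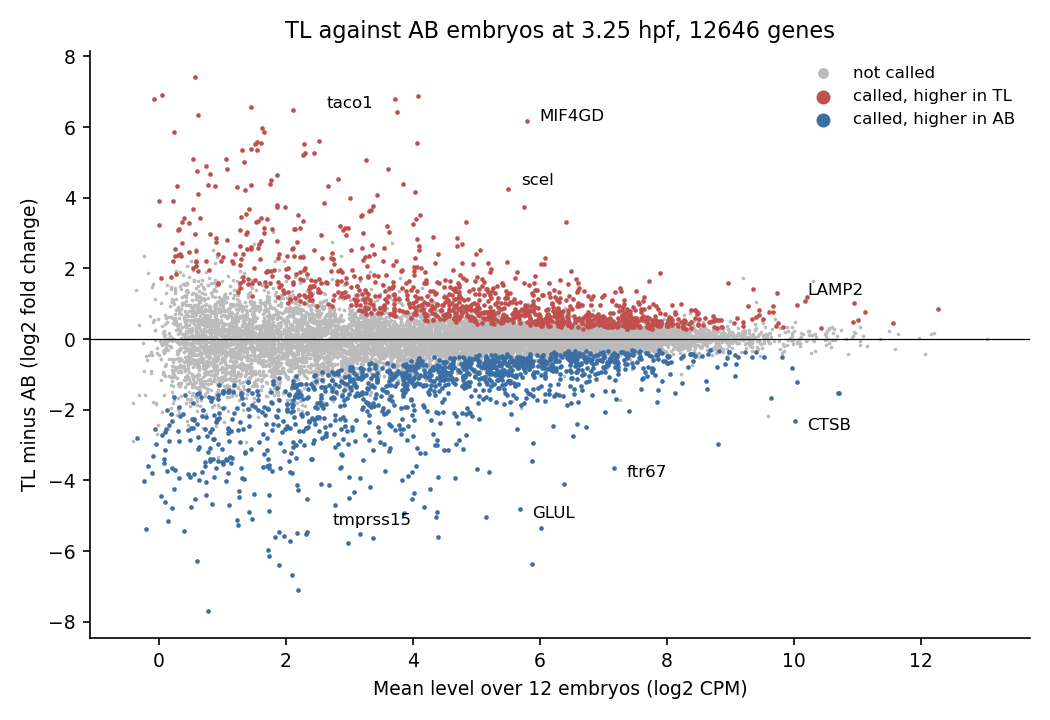
TL minus AB difference (log2 fold change, vertical axis) of each of 12646 tested genes against its mean level over the 12 embryos (log2 CPM, horizontal axis). Red points are the 1078 genes called higher in TL, blue points the 1262 called higher in AB, and grey points the genes not called; differences of more than 4 occurred in both directions.

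Some genes were read almost solely in one strain. The genome build and annotation behind the counts are not given, so a level of 0 need not mean that the RNA was absent. 28 genes had a mean of at least 10 counts in TL embryos and at most 3 counts in each AB embryo, and 33 genes showed the reverse. KCNK5, a potassium channel, had 6.05, 25.1 and 43.4 CPM (lowest, median, highest) in TL embryos and 0, 0.107 and 0.578 CPM in AB embryos. Its difference was 6.79 (SE 0.63, adjusted p = 4.32e-06), and since its symbol is carried by a second ID the assignment of reads is uncertain. taco1, which promotes translation of a mitochondrially encoded cytochrome oxidase subunit, had 13.7, 25.2 and 39.9 CPM in TL embryos and 0, 0.338 and 0.574 CPM in AB embryos (difference 6.42, SE 0.45, adjusted p = 3.98e-07). The lowest TL embryo thus stood above every AB embryo for both genes. The small GTPase gene RASL10B was at 0 in every AB embryo and at 1.18, 2.29 and 7.68 CPM in TL embryos, a level at least 6.57-fold higher when set against 3 counts per library. CHMP6, of which 2 IDs carry the symbol, and zgc:171717 were also at 0 in all AB embryos, at least 4.59-fold and 4.21-fold higher in TL by the same bound. MYOM2, a component of the sarcomere, had 1.43, 6.47 and 7.85 CPM in TL embryos and a single embryo with reads, at 0.176 CPM, in AB. The ratio of its summed levels was 127 (95% counting interval 34.9 to 1060).

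Toward AB, the homeobox gene dmbx2 was at 0 in every TL embryo and at 0.214, 2.13 and 7.67 CPM in AB embryos, a level at least 7.16-fold lower in TL against 3 counts per library. TXNIP, an inhibitor of thioredoxin whose symbol 2 IDs carry, had 0, 0.0606 and 0.155 CPM in TL embryos and 1.15, 4.05 and 16.8 CPM in AB embryos (difference -5.97, SE 0.82, adjusted p = 0.000154). The zinc finger gene znf1156 had 0, 1.21 and 2.64 CPM in TL embryos and 0.557, 112 and 217 CPM in AB embryos. 5 of the 6 AB embryos stood far above TL, and AB embryo 1, at 0.557 CPM, lay inside the TL range. The unnamed ID ENSDARG00000100640 likewise had 0 to 18.3 CPM in AB, with 1 AB embryo at 0, against at most 0.284 CPM in TL.

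Among genes with a symbol that was no clone name and a mean CPM of at least 20, the following had some of the smallest p in each direction. CTSB, a lysosomal cysteine protease that takes part in the breakdown of yolk, had 278, 329 and 441 CPM in TL embryos and 1452, 1731 and 1925 CPM in AB embryos (difference -2.33, SE 0.13, adjusted p = 2.17e-08). GLUL, glutamine synthetase, had 1.94, 3.42 and 5.56 CPM in TL embryos and 86.4, 98.5 and 110 CPM in AB embryos (difference -4.81, SE 0.21, adjusted p = 1.99e-09). A second ID carries the GLUL symbol, so its reads could have been split. The strains were fully separated for both genes. ftr67, of the finTRIM family of ubiquitin ligases, had 15.2, 20.5 and 30.7 CPM in TL embryos and 172, 247 and 434 CPM in AB embryos (difference -3.66, SE 0.24). In the other direction, the ETS transcription factor gene ETV4 had 21.6, 40.7 and 78.3 CPM in TL embryos and 2.69, 5.73 and 9.96 CPM in AB embryos (difference 2.86, SE 0.24, adjusted p = 1.57e-06). scel, the precursor of a cornified envelope protein in mammals, had 53.9, 72.3 and 151 CPM in TL embryos and 1.34, 3.06 and 11.1 CPM in AB embryos (difference 4.23, SE 0.35). PDCL3, a co-chaperone, differed by 1.95 (SE 0.15), with 32.2 to 44.1 CPM in TL embryos and 8.13 to 11.4 CPM in AB embryos.

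To ask how far genome activation had gone, genes were classed from the embryos of the other stages. 362 genes were under 1 CPM at 2.25 hpf and rose at least 4-fold by 4.25 hpf, and these are called the zygotic class here. They made up 0.0365% ± 0.0296 of the counts outside ENSDARG00000080337 in TL embryos and 0.0547% ± 0.0291 in AB embryos (SD, n = 6 each). The lowest, median and highest embryo held 0.0102%, 0.0286% and 0.0915% in TL and 0.0235%, 0.0501% and 0.0974% in AB, so the strains overlapped. The difference did not pass an exact permutation test within replicates (two-sided p = 0.145 over 400 labellings, smallest possible 0.005). In replicate 1 the share was 0.0362% to 0.0915% in TL embryos and 0.0430% to 0.0974% in AB embryos (exact permutation p = 0.6, n = 3 each). In replicate 2 it was 0.0102% to 0.0210% in TL embryos and 0.0235% to 0.0572% in AB embryos, with no overlap (exact permutation p = 0.1, the smallest that 3 against 3 allow). Embryos of replicate 2 held less than those of replicate 1 in both strains, on average 0.0160% against 0.0570% in TL and 0.0363% against 0.0732% in AB. The share at the earlier stage of 2.25 hpf was 0.00531% on average in TL and 0.00748% in AB, and at 4.25 hpf it was 0.499% in TL and 0.593% in AB.

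**Figure D2:**
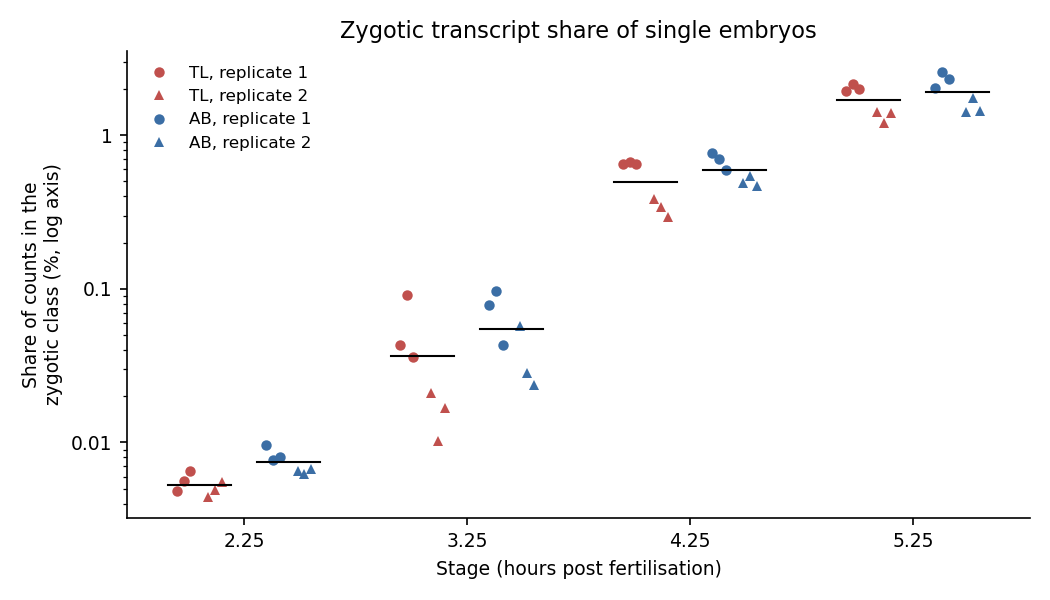
Share of each embryo's counts outside ENSDARG00000080337 (%, log axis) that fell on the 362 genes of the zygotic class, by stage in hours post fertilisation, with TL in red left of AB in blue, circles for biological replicate 1, triangles for replicate 2, and bars for the mean of 6 embryos. At 3.25 hpf TL embryos ran from 0.0102% to 0.0915% and AB embryos from 0.0235% to 0.0974%, and the stages of 2.25 and 4.25 hpf were used to choose the class.

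Most genes of the zygotic class were still too scarce to test, since 301 of the 362 fell under the filter on low counts at 3.25 hpf. Of the 61 tested, 7 were called (11.5%, below the 18.5% of all genes), 6 lower in TL and 1 higher. The median difference of the 61 was -0.72 and 49 were negative. The median was -0.01 over all tested genes and -0.11 over the 3162 with the lowest CPM. The 61 passed the count filter on these same embryos, and that filter can admit a gene through 1 strain alone. Genes of the class also move with the zygotic share of an embryo, so the 61 signs are not independent, and their tilt was not tested. The median of the tested genes of the class was -0.46 without TL embryo 5, -0.48 without AB embryo 4, -1.29 without replicate 1 and -0.29 without replicate 2. 35 of the 61 were lower in TL in both replicates and 4 were higher in both. These counts depended on single embryos: the number called lower in TL was 13 without TL embryo 2, the TL embryo with the highest zygotic share, and 2 without AB embryo 2, the AB embryo with the highest. It was 3 without TL embryo 1, TL embryo 5 or AB embryo 4, and 4 without TL embryo 3 or AB embryo 1. It was 11 with DESeq2, 1 without the replicate block, 1 without replicate 1 and 0 without replicate 2. At 4.25 hpf, in embryos that also served to choose the class, 312 of its genes could be tested. Of these, 48 were lower in TL (15.4%, against 12.7% of all tested genes higher in AB at that stage). Another 19 were higher in TL, and the median difference was -0.30. Of all genes tested at 4.25 hpf, 24.1% were called in either direction.

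The 7 called genes of the class, singled out after their values were seen, were 6 lower in TL and 1 higher. klf17, a Krüppel-like factor that acts in the enveloping layer and the hatching gland lineage, had 2.95, 8.44 and 20.5 CPM in TL embryos and 11.2, 19.7 and 27.1 CPM in AB embryos (difference -1.23, SE 0.30, adjusted p = 0.00949). DUSP6, a phosphatase that dampens Fgf signalling through Erk, had 1.99, 7.69 and 14.7 CPM in TL embryos and 4.78, 14.3 and 36.3 CPM in AB embryos (difference -1.31, SE 0.34, adjusted p = 0.0135). The 3 embryos of TL replicate 2 were the lowest of all 12 for both genes. nnr had 0.544, 3.59 and 14.4 CPM in TL embryos and 3.06, 14.9 and 27.0 CPM in AB embryos (difference -1.87, SE 0.55, adjusted p = 0.0273). The homeobox gene irx7 had 1.79, 8.69 and 27.1 CPM in TL embryos and 7.26, 27.0 and 51.2 CPM in AB embryos (difference -1.49, SE 0.45, adjusted p = 0.0317). For nnr and irx7 the highest TL embryo was TL embryo 2, and leaving out any of 7 single embryos (TL 1, 3, 5 or 6, AB 1, 2 or 4) ended the call, with adjusted p of 0.0503 to 0.0612 for nnr and 0.0544 to 0.0831 for irx7. GADD45G (1 of several IDs of that symbol), a stress and growth arrest gene, had 0.311, 1.64 and 3.79 CPM in TL embryos and 1.23, 4.89 and 15.0 CPM in AB embryos (difference -1.84, SE 0.60, adjusted p = 0.0452). The unnamed ENSDARG00000114187 differed by -2.30 (SE 0.72). Both calls ended without any of 8 or 9 single embryos, among them every TL embryo other than TL 2 and AB embryos 2, 4 and 5 (and AB 3 for GADD45G), with adjusted p up to 0.137. The 1 gene higher in TL was si:dkeyp-33c10.5, with 0.777, 8.44 and 43.8 CPM in TL embryos and 0, 0.161 and 7.90 CPM in AB embryos (difference 3.13, SE 0.90). That call ended without TL embryo 2 or TL embryo 4 (adjusted p 0.0718 and 0.0518). Without the replicate block the calls of klf17, DUSP6, nnr, irx7 and ENSDARG00000114187 also ended. All 7 calls ended without replicate 2, and those of DUSP6, nnr, irx7 and GADD45G ended without replicate 1 as well.

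A wider list of early zygotic transcription factors and signals had 33 tested genes, of which 8 were lower in TL and 0 higher by edgeR (24.2% called, against 18.5% of all genes). DESeq2 called 8 lower and 1 higher. Besides klf17, DUSP6, nnr and irx7 these were znfl2a, BTG1, her7 and klf2b, which already had maternal transcripts at 2.25 hpf or rose too little for the zygotic class. znfl2a, a zinc finger gene, had 1.89, 2.67 and 6.23 CPM in TL embryos and 7.70, 19.5 and 29.5 CPM in AB embryos, with no overlap (difference -2.48, SE 0.28, adjusted p = 2.54e-05). The estimate in other embryos at 2.25 hpf was -3.32, given here without SE or p. BTG1, an antiproliferative factor, had 21.6, 25.4 and 26.4 CPM in TL embryos and 34.0, 41.4 and 47.1 CPM in AB embryos, again with no overlap (difference -0.74, SE 0.13, adjusted p = 0.00133). her7, a Notch-related repressor of the segmentation clock, differed by -0.99 (SE 0.29, adjusted p = 0.0254) at 3.25 hpf, beside an estimate of -2.45 at 2.25 hpf. Its call ended without TL embryo 3, 4 or 5 or AB embryo 3 or 6 (adjusted p 0.0561 to 0.0627). The Krüppel-like factor gene klf2b differed by -1.14 (SE 0.35, adjusted p = 0.0353) and lost its call without any of 8 single embryos (adjusted p up to 0.129), TL embryos 1 and 3 to 6 and AB embryos 1, 4 and 6. The list's count lower in TL was 4 without TL embryo 3 or 5, and 5 without TL embryo 1, TL embryo 6, AB embryo 1 or AB embryo 4. It was 3 of 31 tested without the replicate block, 2 of 25 without replicate 1 and 2 of 33 without replicate 2.

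**Figure D3:**
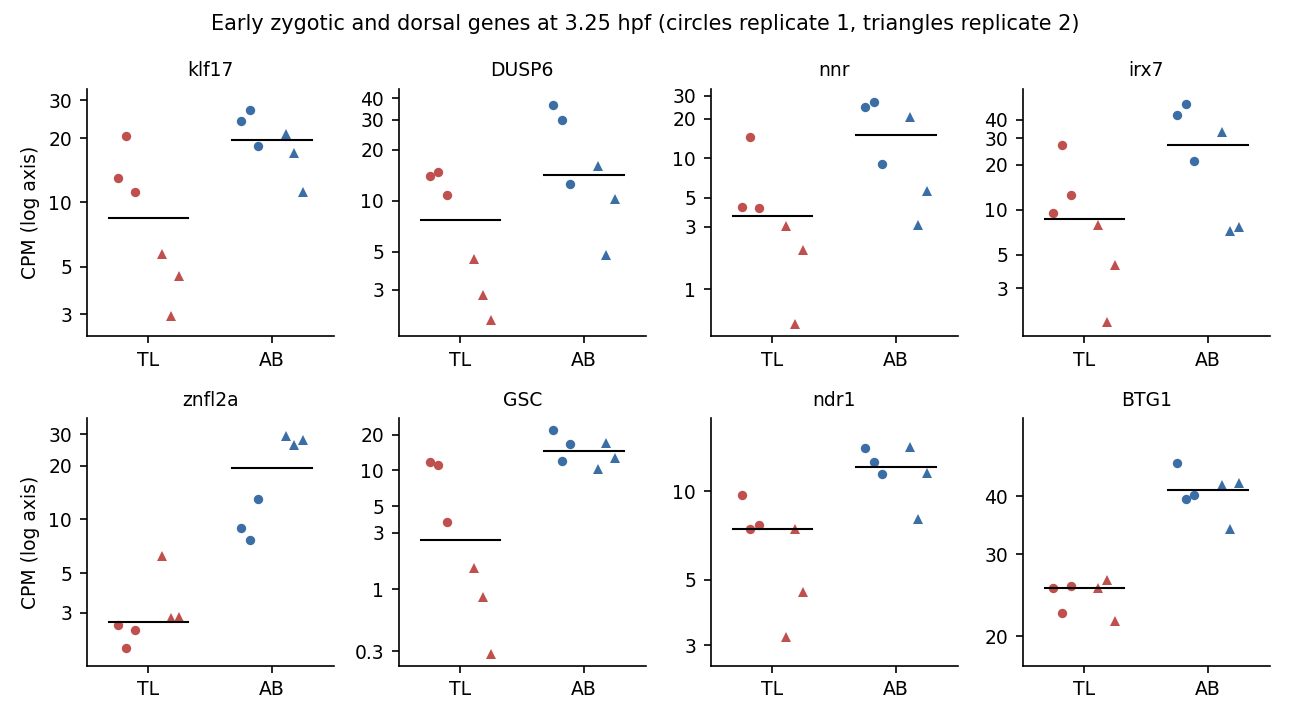
CPM of 8 early zygotic and dorsal genes in each embryo (log axis), TL in red left of AB in blue, circles for biological replicate 1, triangles for replicate 2, bars for the median of 6 embryos. For klf17 and DUSP6 the 3 TL embryos of replicate 2 were the lowest of the 12, while for znfl2a and BTG1 every TL embryo lay below every AB embryo.

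The levels of the regulators that open the genome overlapped between strains, and none of the 3 passed the test by edgeR. pou5f3 had 238, 281 and 339 CPM in TL embryos and 230, 291 and 402 CPM in AB embryos (difference -0.08, SE 0.14, adjusted p = 0.75). nanog had 375, 410 and 490 CPM in TL embryos and 447, 510 and 599 CPM in AB embryos (difference -0.29, SE 0.11, adjusted p = 0.0739). It was called lower in TL by DESeq2 (adjusted p = 0.0308) and by edgeR with the zygotic share as a covariate (0.0469), and not in the other alternatives (adjusted p up to 0.556). sox19b had 153, 196 and 217 CPM in TL embryos and 129, 193 and 234 CPM in AB embryos (difference 0.08, SE 0.15, adjusted p = 0.758). Of the 10 tested genes in the list of genome activators and pluripotency regulators, edgeR called 1, the Myc gene mych (10%, against 18.5% of all genes), and DESeq2 called 2, mych and nanog. mych stood at 20.1 to 33.9 CPM in TL embryos and 28.1 to 68.5 CPM in AB embryos (difference -0.78, SE 0.22, adjusted p = 0.0217). Its edgeR call ended without TL embryo 5 or 6 (adjusted p 0.0531 in each case), with the covariate, and without replicate 1 or replicate 2.

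Nodal ligands induce mesoderm and endoderm at the margin, and Lefty proteins antagonise them. ndr1 had 3.20, 7.44 and 9.70 CPM in TL embryos and 8.03, 12 and 14.1 CPM in AB embryos (difference -0.86, SE 0.26, adjusted p = 0.0312), the 1 called gene of 11 tested Nodal genes (9.09%, against 18.5% of all genes). That call was near the threshold: it ended without the replicate block, with the zygotic share as a covariate, without replicate 1 or replicate 2 and without any of TL embryos 2, 3, 4 and 6 or AB embryos 1, 4 and 6 (adjusted p 0.0545 to 0.0701). The antagonist genes lft1, at 0.155 to 1.82 CPM in TL embryos and 0.574 to 2.04 CPM in AB embryos, and lft2, at 0.233 to 16.6 CPM in TL embryos and 1.5 to 12.7 CPM in AB embryos, did not pass (adjusted p 0.353 and 0.424). The maternal co-receptor gene tdgf1 (difference 0.26, SE 0.11) and the Nodal effector genes foxh1 (0.25, SE 0.11) and SMAD2 (0.25, SE 0.16) did not pass either. Of these, foxh1 was called higher in TL in 1 of 23 alternatives. ndr2 stayed under the filter on low counts at 0.583 to 1.85 CPM in TL embryos and 0 to 2.31 CPM in AB embryos. So did vgll4l and sox32, genes of the dorsal forerunner cells and endoderm, with at most 2.91 and 1.17 CPM in TL embryos and 2.7 and 1.29 CPM in AB embryos. Of the 5 tested genes in the list for endoderm and dorsal forerunner cells, edgeR and DESeq2 called 0.

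Of 20 tested dorsoventral genes, 5 were called (25%, against 18.5% of all genes). Of these, 4 were lower in TL (20%, against 9.98% of all genes) and 1 was higher (5%, against 8.52%). Called or not, 10 of the 20 differences were positive and 10 negative, with a median of -0.05. The count lower in TL was 2 of 17 tested without the replicate block, 1 of 16 without replicate 1 and 0 of 20 without replicate 2. GSC, the organizer homeobox gene goosecoid, had 0.284, 2.59 and 11.8 CPM in TL embryos and 10.3, 14.7 and 21.9 CPM in AB embryos (difference -2.14, SE 0.52, adjusted p = 0.00982). Within TL the 3 embryos of replicate 1 stood above the 3 of replicate 2, and the call ended without the replicate block or without replicate 2. wnt11f2, a Wnt ligand that guides gastrulation movements, had 1.14, 3.99 and 7.72 CPM in TL embryos and 4.21, 9.06 and 16.9 CPM in AB embryos (difference -1.49, SE 0.34, adjusted p = 0.00683; not called without the block, with the zygotic share as a covariate or without replicate 1 or replicate 2). In the embryos of 2.25 hpf the estimates for GSC and wnt11f2 were -2.07 and -2.04, given here without SE or p. tcf7l1b, a transcriptional repressor of Wnt targets, differed by -0.82 (SE 0.19), with 48.5 to 101 CPM in TL embryos and 100.4 to 181 CPM in AB embryos. acvr1l, a Bmp type I receptor, differed by -0.46 (SE 0.12, adjusted p = 0.0175), a call that ended without TL embryo 4 (adjusted p = 0.0527). sybu, which encodes syntabulin, a maternal linker of dorsal determinants to kinesin, was higher in TL, with 108, 135 and 167 CPM in TL embryos and 68.3, 80.4 and 111 CPM in AB embryos (difference 0.68, SE 0.14, adjusted p = 0.0031). The Bmp-side repressor gene vox, at 2.80 to 47.5 CPM in TL embryos and 10.1 to 75.5 CPM in AB embryos, and the dorsal homeobox gene dharma, at 0.311 to 3.50 CPM in TL embryos and 0.441 to 3.79 CPM in AB embryos, did not pass (adjusted p 0.335 and 0.415). ved was read at most at 0.107 CPM, in a single strain. The 4 dorsal margin markers summed to 5.22, 11.2 and 23.6 CPM in TL embryos and 24.9, 27.6 and 40.1 CPM in AB embryos. Most of each sum came from GSC and ndr1, both already given as called. The ranges of dharma overlapped, as did those of chrd, at 0 to 1.6 CPM in TL embryos and 0.176 to 1.93 CPM in AB embryos. chrd was under the filter on low counts.

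In the list for the enveloping layer and the yolk syncytial layer, edgeR called 4 of 19 tested genes lower in TL and 0 higher, while DESeq2 called 5 lower and 1 higher. Called or not, 9 of the 19 differences were positive and 10 negative, with a median of -0.29. The 21.1% called by edgeR compare with 18.5% of all genes. Besides klf17 these were pfn1, krt8 and epcam. pfn1, the actin-binding protein profilin, had 25.2, 47.3 and 71.6 CPM in TL embryos and 112, 131 and 183 CPM in AB embryos (difference -1.54, SE 0.21, adjusted p = 0.000137). krt8, a keratin of simple epithelia, had 1.09, 2.98 and 11.7 CPM in TL embryos and 5.11, 15.6 and 23.9 CPM in AB embryos (difference -1.84, SE 0.52, adjusted p = 0.0237). The adhesion gene epcam varied widely among AB embryos, from 513 to 6232 CPM with a median of 1880 CPM, and was at 574, 828 and 1292 CPM in TL embryos (difference -1.53, SE 0.45, adjusted p = 0.0272). The epcam call ended without TL embryo 1, 3, 4 or 5 or AB embryo 3 or 5 (adjusted p 0.0503 to 0.117), and that of krt8 without TL embryo 1 or 4 or AB embryo 2 or 4 (adjusted p 0.0504 to 0.059). The list's count lower in TL was 2 without TL embryo 4, 2 of 16 tested without replicate 1 and 2 of 17 without replicate 2. With the zygotic share as a covariate, 2 of 14 tested were lower in TL and 1 was higher. The covariate fit left out the genes of the zygotic class, so klf17 could not be called there. mxtx2 and grhl3, early zygotic regulators of the yolk syncytial layer and the enveloping layer, did not pass (differences -0.65, SE 0.42, and -0.35, SE 0.39). Both were highest in TL embryo 2 within TL, at 49.1 and 48.1 CPM.

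The maternal stores differed in both directions. Of 26 tested germ plasm and germ cell genes, 5 were higher in TL and 0 were higher in AB by edgeR, with 6 and 0 by DESeq2. The share called by edgeR, 19.2%, was near the 18.5% of all genes, and the count higher in TL was 2 without replicate 1 and 3 without replicate 2. tdrd5, a Tudor domain protein of the piRNA pathway, had 133, 140 and 166 CPM in TL embryos and 22.4, 37.0 and 93.3 CPM in AB embryos, with no overlap (difference 1.58, SE 0.29, adjusted p = 0.00147). ZAR1L, an oocyte RNA-binding protein, had 794, 886 and 1035 CPM in TL embryos and 331, 530 and 653 CPM in AB embryos, again with no overlap (difference 0.82, SE 0.15, adjusted p = 0.00121). rgs14a (difference 0.59, SE 0.14) and henmt1, which methylates piRNA ends (0.70, SE 0.19), were also higher in TL with overlapping ranges. tdrkh, another piRNA pathway gene, was called at 0.45 (SE 0.15, adjusted p = 0.0476), but leaving out any of 10 embryos, all but TL 5 and AB 5, ended the call (adjusted p up to 0.108), as did leaving out the block. The core germ plasm genes buc, ddx4, dazl and nanos3 did not pass, with differences of 0.03, 0.08, 0.02 and 0.21. The egg nucleoplasmin gene npm2b, singled out after its values were seen, had 303, 395 and 656 CPM in TL embryos and 220, 270 and 402 CPM in AB embryos (difference 0.57, SE 0.16; not called without the block).

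Of 57 tested genes of maternal RNA storage and clearance, 3 were higher in TL and 3 higher in AB (6 of 57 called, a share below the 18.5% of all genes). ZAR1L was 1 of those higher in TL. elavl1a, an RNA-stabilising protein that binds maternal messages, had 194, 239 and 289 CPM in TL embryos and 318, 401 and 560 CPM in AB embryos, with no overlap (difference -0.78, SE 0.13, adjusted p = 0.000782). lsm14aa, a P-body component, had 173, 191 and 240 CPM in TL embryos and 262, 306 and 392 CPM in AB embryos, also with no overlap (difference -0.68, SE 0.14, adjusted p = 0.00264). The deadenylase subunits were split: CNOT6L was lower in TL, with 1.18 to 6.37 CPM in TL embryos and 5.99 to 12.3 CPM in AB embryos (difference -1.36, SE 0.32), while CNOT7 and cnot6b were higher by 0.50 (SE 0.16) and 0.48 (SE 0.16). Each of these calls ended without replicate 1 and without replicate 2. With the zygotic share as a covariate, CNOT6L and cnot6b were not called. The CNOT7 call ended without any of 8 embryos (TL 2, 3, 4 or 6, AB 1, 3, 4 or 6; adjusted p up to 0.0845) and the cnot6b call without any of 9 (TL 1 or 3 to 6, AB 2 to 5; adjusted p up to 0.11), cnot6b also without the block. The list's count higher in TL was 1 without any of TL embryos 3, 4 and 6 or AB embryos 3 and 4.

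Cell cycle genes matter at this stage because the rapid synchronous divisions of the cleavage embryo are about to slow. Of 71 tested, 11 were higher in TL and 5 higher in AB (22.5% called, against 18.5% of all genes), with a median difference of 0.09. bub1bb and BUB3, partners in the spindle assembly checkpoint, were both higher in TL. bub1bb had 124, 154 and 183 CPM in TL embryos and 62.5, 68.6 and 78.4 CPM in AB embryos (difference 1.14, SE 0.10, adjusted p = 1.98e-06). BUB3 had 87.8, 123 and 225 CPM in TL embryos and 30.6, 39.9 and 67.4 CPM in AB embryos (difference 1.56, SE 0.21, adjusted p = 0.00016). No TL embryo overlapped AB for either gene. The mitotic kinase gene CDK1 had 177, 192 and 238 CPM in TL embryos and 121, 133 and 169 CPM in AB embryos (difference 0.54, SE 0.11, adjusted p = 0.00288). The early embryonic cyclin CCNA1 had 806, 867 and 963 CPM in TL embryos and 548, 569 and 693 CPM in AB embryos (difference 0.57, SE 0.10, adjusted p = 0.000923). Lower in TL were GMNN, geminin, an inhibitor of replication licensing, and CENPF, a kinetochore protein. GMNN had 221, 349 and 527 CPM in TL embryos and 549, 676 and 1013 CPM in AB embryos (difference -1.04, SE 0.21, adjusted p = 0.00283). CENPF had 22.5, 30.6 and 34.6 CPM in TL embryos and 50.1, 65.8 and 103 CPM in AB embryos (difference -1.27, SE 0.19, adjusted p = 0.000323). The CDK1 call ended without replicate 1, and those of CCNA1 and GMNN ended without replicate 2.

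Other called cell cycle genes, singled out after their values were seen, followed neither direction alone. The replication factor CDC45 (difference 0.46, SE 0.10), the mitotic kinesin kif11 (0.50, SE 0.12) and the checkpoint kinase ATR (0.72, SE 0.18) were higher in TL. The anaphase activator CDC20, at 391 to 528 CPM in TL embryos and 580 to 729 CPM in AB embryos (difference -0.51, SE 0.10), and WEE1, the inhibitory kinase of Cdk1 (-0.95, SE 0.20), were lower in TL. The calls of CDC45, kif11 and CDC20 ended without replicate 1 and without replicate 2, and that of WEE1 without replicate 2. ATR lost its call in sums over 3 embryos, with the zygotic share as a covariate and without replicate 1. The list's count higher in TL was 7 without TL embryo 3 and 9 without the replicate block, and 4 in either replicate alone.

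**Figure D4:**
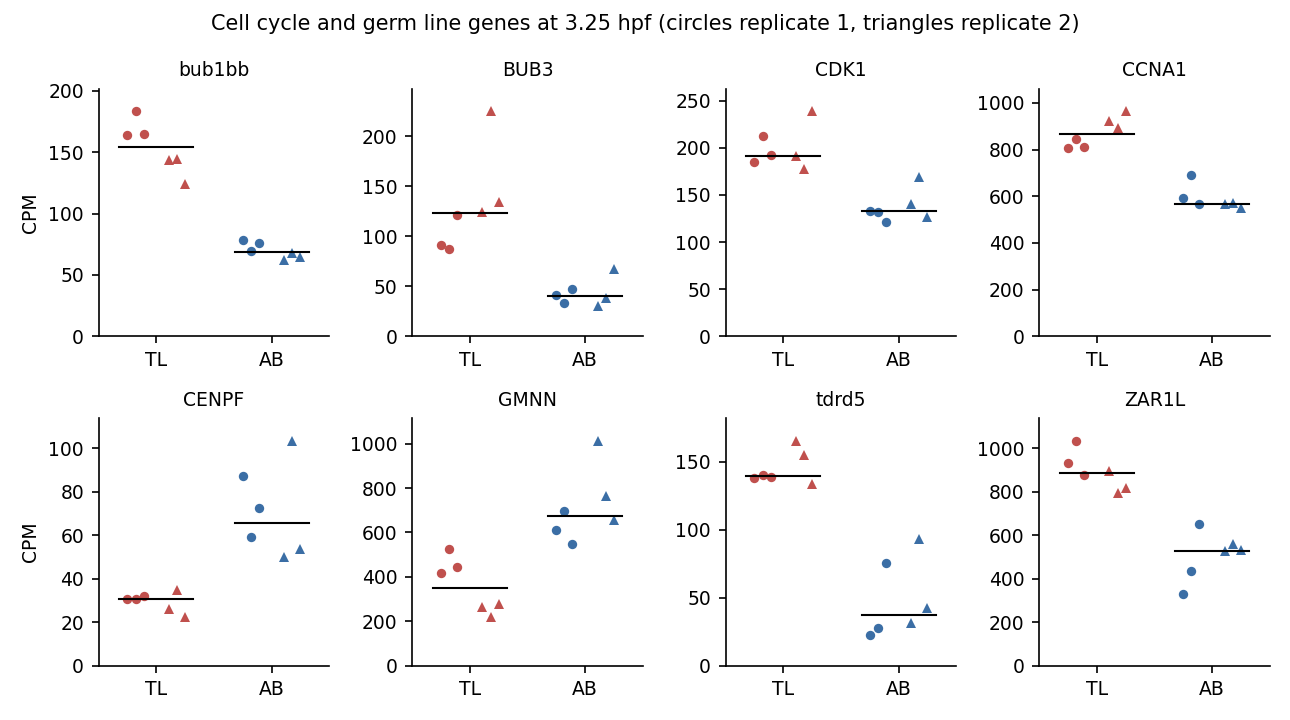
CPM (linear axis from 0) of 6 cell cycle genes and 2 germ line genes in each embryo at 3.25 hpf, TL in red left of AB in blue, circles for biological replicate 1, triangles for replicate 2, bars for the median of 6 embryos. The strains did not overlap for any of the 8 genes, with TL above AB for bub1bb, BUB3, CDK1, CCNA1, tdrd5 and ZAR1L and below it for CENPF and GMNN.

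Of 46 tested genes of histones and chromatin, 4 were higher in TL and 6 higher in AB (21.7% called, near the 18.5% of all genes). Without replicate 1 the counts were 0 and 1, and without replicate 2 they were 1 and 4. dnmt3ba, a de novo DNA methyltransferase gene, had 0.569, 2.33 and 3.89 CPM in TL embryos and 11.8, 14.2 and 23.9 CPM in AB embryos (difference -2.72, SE 0.36, adjusted p = 0.000108). The histone deacetylase genes HDAC8 (difference -0.90, SE 0.17) and HDAC1 (-0.48, SE 0.11) were lower in TL with no overlap between strains. The high mobility group genes hmgb1a (-0.71, SE 0.15), hmgb2b (-0.37, SE 0.09) and HMGN2 (-0.83, SE 0.21) were lower as well, with overlapping ranges, and hmgb2b was not called without the replicate block. The list's count higher in TL was 2 without TL embryo 3, TL embryo 5 or any of AB embryos 2 to 5.

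Among 29 tested genes of stress response, apoptosis and innate sensing, 3 were higher in TL and 3 higher in AB (20.7% called, near the 18.5% of all genes). sesn2, which restrains growth signalling under stress, had 119, 129 and 138 CPM in TL embryos and 50.7, 64.8 and 86.0 CPM in AB embryos (difference 0.97, SE 0.13, adjusted p = 0.000179). CCNG1, an atypical cyclin, was higher in TL by 0.34 (SE 0.11, adjusted p = 0.0441). stat2, a mediator of interferon signalling, had 0.569, 2.18 and 3.64 CPM in TL embryos and 5.93, 9.88 and 12.9 CPM in AB embryos (difference -2.23, SE 0.35, adjusted p = 0.000439). The initiator caspase casp8 was lower in TL by -0.79 (SE 0.19), with no overlap, and the caspase inhibitor xiap by -0.50 (SE 0.16, adjusted p = 0.0393). The casp8 call ended in sums over 3 embryos, with the zygotic share as a covariate and without replicate 2. CCNG1 lost its call without any of 10 embryos (all but TL 1 and AB 2; adjusted p up to 0.0912) and xiap without any of 8 (TL 1, 2, 3 or 5, AB 1, 2, 3 or 5; up to 0.0974), and neither was called without the block. Without TL embryo 3 the list's count higher in TL was 1.

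Of 42 tested energy and amino acid genes, 9 were higher in TL (21.4%, against 8.52% of all genes) and 3 higher in AB (7.14%, against 9.98%). These counts were not stable: without AB embryo 1 there were 4 higher in TL and 4 higher in AB, without replicate 1 there were 2 and 3, without replicate 2 there were 3 and 1, and with the zygotic share as a covariate 4 and 2. VDAC1, a channel of the outer mitochondrial membrane, had 246, 276 and 313 CPM in TL embryos and 112, 148 and 165 CPM in AB embryos (difference 0.92, SE 0.10, adjusted p = 1.33e-05). Its paralog VDAC3 went the other way, with 19.9, 24.9 and 34.4 CPM in TL embryos and 42.6, 49.6 and 65.0 CPM in AB embryos (difference -1.03, SE 0.17, adjusted p = 0.000742). Neither pair of ranges overlapped. PSAT1, of serine synthesis (0.59, SE 0.13), and ODC1, of polyamine synthesis (0.59, SE 0.14), were higher in TL, and the glycolytic enzyme gene pgam1a was lower (-0.92, SE 0.12). The list's count higher in TL was also 4 without TL embryo 4 or AB embryo 4, 5 without TL embryo 2, TL embryo 3 or AB embryo 6, and 6 without the replicate block. Of 20 tested genes in the list of cathepsins and other lysosomal and yolk genes, 2 were higher in TL and 1 higher in AB (15% called, against 18.5% of all genes). CTSB, described above as lower in TL, is not among the 20, because the list's names for it matched no single ID. LAMP2, a lysosomal membrane protein, had 1164, 1400 and 1669 CPM in TL embryos and 626, 724 and 826 CPM in AB embryos (difference 0.95, SE 0.11, adjusted p = 4.24e-05). The protease gene CTSC was higher by 0.94 (SE 0.19), and PSAP, the saposin precursor, was lower by -0.70 (SE 0.12).

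Gene families gave further counts; they were examined because earlier results of these data were known. Of 79 ribosomal protein genes tested, 19 were higher in TL (24.1%, against 8.52% of all genes) and 1, RPL12, was lower, and 70 of the 79 differences were positive with a median of 0.38. RPLP0, a stalk protein of the large subunit, had a mean difference of 1.20 (SE 0.21) with a median of 1615 CPM in TL embryos and 600 CPM in AB embryos. RPS2 differed by 1.00 (SE 0.14), with a median of 268 CPM in TL embryos and 123 CPM in AB embryos. The median stayed positive under every scaling tried, at 0.34 with library totals only. The count higher in TL ran from 10 without TL embryo 2 to 25 without TL embryo 5, with 11 without TL embryo 3, TL embryo 4 or AB embryo 1 and 12 without AB embryo 6. It was 12 without the replicate block, 2 without replicate 1 and 8 without replicate 2. Of 13 mitochondrially encoded genes, 4 were higher in TL and 0 higher in AB by edgeR and DESeq2 (30.8% higher in TL, against 8.52% of all genes). The count higher in TL was 1 without the block, 1 without replicate 1 and 0 without replicate 2. Of 135 znf genes, 9 were higher in TL (6.67%) and 20 higher in AB (14.8%, against 9.98% of all genes). The znf count higher in AB was 13 without TL embryo 1 and 11 with the zygotic share as a covariate. Without replicate 1 there were 6 znf genes higher in TL and 5 higher in AB, and without replicate 2 there were 3 and 6. Of 7 finTRIM genes, 3 were higher in TL and 1, ftr67, in AB (57.1% called, against 18.5% of all genes).

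The strain differences were compared with those of other embryos an hour earlier, before most zygotic transcription. Embryos of the other stages carry the same 2 biological replicate numbers, so they cannot be taken as independent samples of the strains. Of the called genes, 2270 could be tested at 2.25 hpf, and 2257 of these had the same sign there (99.4%, against 81.5% of all genes tested at both stages). 1666 genes were called at both stages. They were 73.4% of these 2270 genes and 59.8% of the 2787 genes called at 2.25 hpf and tested at 3.25 hpf. At 2.25 hpf, 22.9% of tested genes were called. At 4.25 hpf, with 24.1% of genes called, 2228 of 2271 had the same sign (98.1%, against 80.2% of all genes tested at both stages) and 1637 were called at both stages. At 5.25 hpf, with 15.7% called, 2105 of 2207 had the same sign (95.4%, against 76.1%) and 1102 were called at both. Of the 12646 genes tested at 3.25 hpf, 871 were called at all 4 stages, each with 1 sign throughout. CTSB, for example, differed by -2.54, -2.33, -2.29 and -2.19 from the earliest to the latest stage, and taco1 by 8.10, 6.42, 4.13 and 1.45. A direct test of whether the strain difference changed between 2.25 and 3.25 hpf called 0 of 13563 genes with edgeR and 1 with DESeq2. By edgeR, 345 genes (2.54%) had an unadjusted p under 0.05, and the smallest adjusted p was 0.195. In simulated counts this edgeR test recovered 1.5% of 1.5-fold, 34.3% of 2-fold and 67.2% of 4-fold changes. The simulated counts held no strain, stage or replicate effects beyond the changes put in, so recovery in real embryos may differ. The 0 calls therefore do not show that the strain difference stayed the same. ZAR1L, 1 of the 345 genes, was not called by edgeR in the real embryos. Its unadjusted p was 0.0151, with a difference of 0.35 at 2.25 hpf and 0.82 at 3.25 hpf.

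The strain difference itself differed between the 2 biological replicates for 10 of 13163 genes (0.076%), with DESeq2 calling 60. The test favours genes with little spread within a replicate, so likeness among the 3 embryos of a replicate comes with the selection. STOX2 had 16.3 to 25 CPM in TL replicate 1 and 0.284 to 0.932 CPM in TL replicate 2, against 29.9 to 38.6 CPM in AB replicate 1 and 19.3 to 26.9 CPM in AB replicate 2. ADHFE1, an alcohol dehydrogenase, had 19.8 to 24.3 CPM in TL replicate 1 and 0.854 to 2.41 CPM in TL replicate 2, against 27.5 to 38.4 CPM in all AB embryos. ppp1r3c2b, related to regulatory subunits of a glycogen-targeted phosphatase, had 723 to 1948 CPM in TL replicate 1 and 22.5 to 37.3 CPM in TL replicate 2, against 410 to 1444 CPM in AB embryos. A pair of IDs of like name moved opposite to each other: fam167aa had 9.24 to 18.1 CPM in TL replicate 1 and 0 to 0.285 CPM in TL replicate 2, whereas FAM167A had 0 to 0.159 CPM in TL replicate 1 and 9.95 to 17.9 CPM in TL replicate 2. AB embryos had 0.557 to 3.42 CPM of fam167aa and 0.529 to 4.28 CPM of FAM167A. Several IDs carry the STOX2, B3GLCT or FAM167A symbols, so their reads could have been divided between copies.

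**Figure D5:**
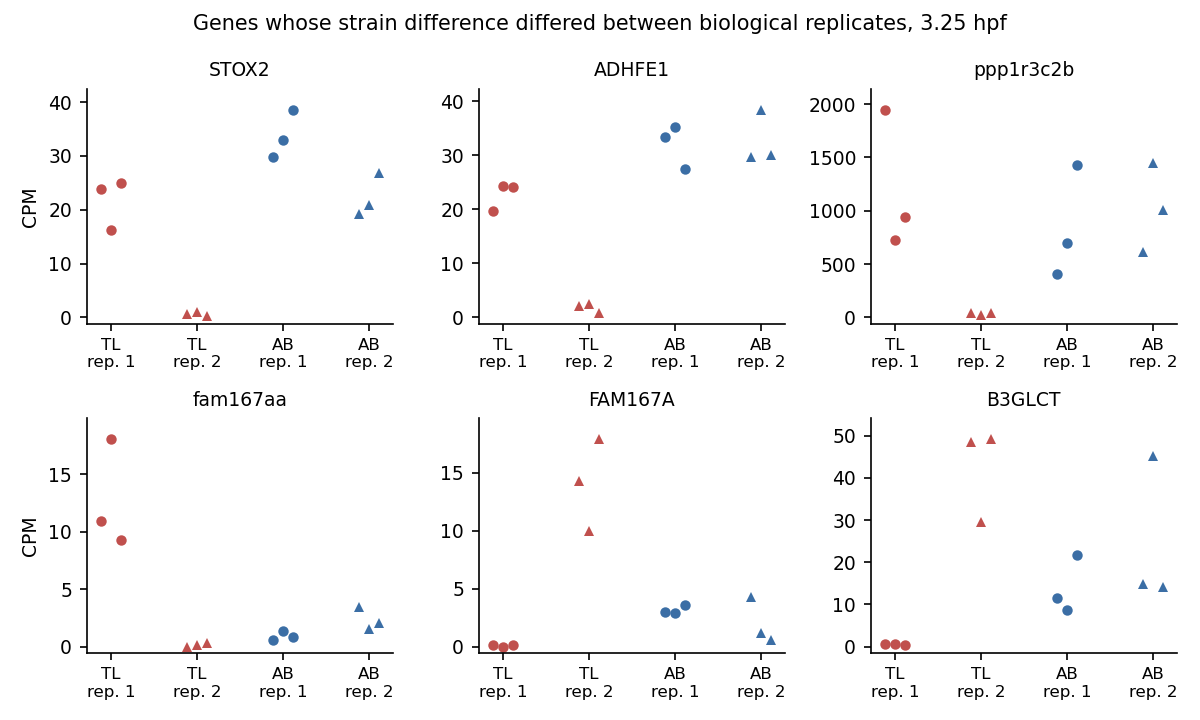
CPM (linear axis) of 6 of the 10 genes whose strain difference differed between replicates, with 3 embryos in each of TL replicate 1, TL replicate 2, AB replicate 1 and AB replicate 2. STOX2, ADHFE1 and ppp1r3c2b were low in all 3 embryos of TL replicate 2, and fam167aa and FAM167A were high in opposite TL replicates.

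Among markers of other tissues, 1 of 11 tested was called (9.09%, against 18.5% of all genes). gsdf, a growth factor of the somatic cells of the gonad, had 0.121, 0 and 1.91 CPM in TL embryos 1 to 3 and 5.05, 3.96 and 6.54 CPM in TL embryos 4 to 6, against at most 0.214 CPM in AB embryos (difference 4.75, SE 0.89, adjusted p = 0.00173). The TL embryos of replicate 2, which were also the lowest for klf17, DUSP6 and GSC, were thus the highest for gsdf. The other ovarian follicle markers, hsd3b1 and amh, were at most 0.765 CPM in any embryo. Whether gsdf goes with the levels of the early zygotic genes was not tested. The counts without replicate 2, given beside those genes, rest on 3 embryos per strain and cannot decide it.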

How the data were processed

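The data were single-embryo CEL-seq2 libraries, deposited as 1 table of raw counts per stage over 32520 Ensembl gene IDs, without spike-in or total rows. Per the submitters' processing notes, bcl2fastq 2.19.0.316, STAR 2.7.1a and edgeR 3.26.8 were used, with no role given. The genome build, annotation, counting program, use of strand and treatment of molecular identifiers are not given in the sources used here, so counting intervals and bounds cover counting error only, and overlapping or antisense genes cannot be told apart. A table paired 29201 IDs with symbols, and 6314 IDs share a symbol with another ID.

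From the deposited counts, strains were compared at 3.25 hpf with edgeR 4.0.16 (limma 3.58.1, R 4.3.3): filterByExpr, TMM factors, the quasi-likelihood test with biological replicate as a block, and Benjamini-Hochberg adjustment over all tested genes, called under 0.05. SE is the absolute log2 fold change divided by the square root of F. CPM are counts divided by the TMM-scaled library (without ENSDARG00000080337) and multiplied by 1e6. The same test was fitted at each other stage, for the change from 2.25 to 3.25 hpf and for the strain by replicate interaction. For values per embryo, an exact permutation test, two-sided, reassigned strains within replicates (400 labellings). A level of 0 in a whole strain was bounded at 3 counts per library. The labels give each replicate separate sequencing runs, which pairs the strains by replicate; across genes, the mean deviations of a replicate's TL and AB embryos had r = 0.266.

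Named genes were, among called genes, the 8 per direction with the largest differences, the 6 per direction with the smallest p above 20 CPM, up to 6 per list, and 12 regulators whatever their result; not all are described, 1 that met the rule is not reported here, and others are marked as chosen after their values were seen. The 14 lists held 709 genes, of which 510 matched a single ID and 387 were tested. The members, lists and families were chosen with earlier results of these data known. Alternatives covered the block, scaling, filters, DESeq2 1.42.0, sums over 3 embryos, a zygotic-share covariate, and leaving out each embryo and each replicate. The covariate fit left out the genes of the zygotic class. The count filter was applied anew in each alternative, so the genes tested differ and a lower count of calls can include genes no longer tested. The fits were tested on simulated data. No 2 libraries were alike within sampling noise: 30 pairs within a strain had chi-square values of 10.7 to 49.4 per degree of freedom. Sequences and coordinates are not used here.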

Additional observations from a re-analysis of the deposited data

Results flagged for a closer look

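For the named genes, each strain's 6 embryos were checked for 1 embryo far from the other 5. Such an embryo was found in 24 of 216 groups. A chance rate of about 1 group of 20 would hold for normally distributed values, which CPM need not be. Some of the 24 groups held very few reads. si:dkeyp-70f9.2 had 1 count over all TL embryos, and MYOM2 had 2 counts over all AB embryos. The 24 groups therefore cannot show whether such embryos were more frequent than by chance. TL embryo 2 stood above the other TL embryos for several zygotic genes: mxtx2 had 49.1 CPM there against 2.18 to 16 CPM in the other TL embryos. grhl3 had 48.1 CPM there, lft2 16.6 CPM, nnr 14.4 CPM, ENSDARG00000114187 12.2 CPM and si:dkeyp-33c10.5 43.8 CPM. AB embryo 2 stood above the other AB embryos for mxtx2 (48.7 CPM), si:dkeyp-33c10.5 (7.90 CPM), CCNA1 (693 CPM) and si:ch211-209l18.4 (14.8 CPM), and below them for tmprss15 (17.5 CPM against 42.7 to 46.9 CPM).

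TL embryo 6 was highest within TL for RASL10B (7.68 CPM), kif11 (382 CPM) and ENSDARG00000100640 (0.284 CPM), and lowest for ODC1 (131 CPM). TL embryo 5 was highest for BUB3 (225 CPM), KCNJ1 (0.311 CPM) and si:dkeyp-70f9.2 (0.0777 CPM), and TL embryo 4 for znfl2a (6.23 CPM against 1.89 to 2.84 CPM). AB embryo 5 was highest within AB for kif11 (296 CPM), KCNJ1 (22.6 CPM) and henmt1 (27.5 CPM). AB embryo 6 was the only AB embryo with reads of MYOM2 (0.176 CPM) and mhc1zfa (0.353 CPM).

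The strain difference of 10 genes differed between biological replicates by the interaction test of edgeR (replicate 2 minus replicate 1, log2). It was lower in replicate 2 by -4.29 for STOX2 (adjusted p = 0.0016), -3.59 for ADHFE1, -5.53 for ppp1r3c2b, -7.75 for fam167aa, -6.77 for crp3 and -1.61 for NLN (adjusted p = 0.0135). It was higher in replicate 2 by 6.06 for si:cabz01069016.2, 2.51 for CEP131, 5.39 for B3GLCT and 7.73 for FAM167A.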

How the results depend on the processing

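The count of 2340 called genes was 1869 without the replicate block, 2961 with DESeq2, 2962 without a filter on low counts and 1817 with the zygotic share as a covariate. It was 2243 over sums of 3 embryos and between 2302 and 2345 under the other scalings and filter. Leaving out 1 embryo or 1 replicate gave 847 to 2262 called genes, 349 to 1047 of them higher in TL and 466 to 1215 higher in AB. The lowest values came from the fits without 1 whole replicate (869 without replicate 1 and 847 without replicate 2), which have 6 embryos; single embryos gave 1914 or more. In every alternative, the genes also called in the main comparison kept their sign. Of 94 named called genes, 94 kept their sign and 41 kept their call in every alternative that tested them. Some of the 41 were not tested in every alternative: CHMP6 was tested in 19 of 23 and RASL10B in 20. Of the 94, 18 lost their call without the block, 14 with the covariate and 19 without 1 embryo. The change from 2.25 to 3.25 hpf gave 1 gene with DESeq2 and 0 to 1 without 1 replicate, and the replicate interaction gave 60 genes with DESeq2. The difference in zygotic share, -0.0182 percentage points, was -0.00294 when shares were taken of all counts including ENSDARG00000080337 and -0.0203 to -0.0162 without 1 replicate (exact permutation tests, p from 0.1 to 0.665). As a share of all counts it turned positive in replicate 1, at 0.00682, and was -0.0127 in replicate 2 (exact permutation p = 0.9 and 0.1). Mean shares of all counts at 2.25 hpf were 0.004045% in TL and 0.004678% in AB. They were 0.362% and 0.36% at 4.25 hpf, and 1.191% and 1.045% at 5.25 hpf. Among the named genes, signs turned only for regulators that were not called. lft2 ran from -1.39 (without TL embryo 2) to 0.12 (without replicate 2). pou5f3 ran from -0.25 (under the covariate, with -0.15 without replicate 2) to 0.004391 (without AB embryo 1). sox19b ran from -0.19 (without replicate 2, and also below 0 without AB embryo 5) to 0.33 (without replicate 1), with -0.0713 under the covariate. The causes of these changes were not tested. Of the 362 genes of the zygotic class, 301 were under the filter on low counts and could not be tested at these depths.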

Other observations

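Genes that rose between 2.25 and 4.25 hpf but already had transcripts at the earlier stage were counted apart: of 215 tested, 14 were higher in TL (6.51%, against 8.52% of all genes) and 38 higher in AB (17.7%, against 9.98%), with a median difference of -0.41. Of 222 tested genes that fell over the same interval, 27 were higher in TL (12.2%) and 28 higher in AB (12.6%), with a median of 0.03. These differences in share were not tested. Among the 3162 genes with the lowest CPM, 187 were higher in TL (5.91%) and 292 higher in AB (9.23%). Among the 3162 with the highest, 318 were higher in TL (10.1%) and 227 higher in AB (7.18%). The 3161 genes at 5.74 to 26.71 CPM had 279 higher in TL (8.83%) and 407 higher in AB (12.9%). The 3161 at 26.72 to 84.6 CPM had 294 higher in TL (9.3%) and 336 higher in AB (10.6%). Of all genes, 8.52% were higher in TL and 9.98% higher in AB. Whether these shares depend on the level was not tested. Genes known by a clone name were called more often, 299 of 1299 (23.0%), than those with a gene symbol, 1967 of 11010 (17.9%); that difference was not tested.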
